A study of Mus musculus with 8 samples.

Results

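A set of 10 genes of the neuronal cytoskeleton was followed through 4 lines of mouse embryonic stem cells: the stathmin genes Stmn2 and Stmn3, the growth cone gene Gap43, the intermediate filament genes Nefl, Nefm and Ina, the neuronal β-tubulin gene Tubb3, and Map2, Mapt and Dcx, whose products bind microtubules. They were chosen by name, and all 10 were found among the 43346 genes listed and among the 18055 tested. Total RNA was sequenced on a stranded protocol with paired-end reads, and the authors counted reads per gene in 8 libraries, 2 from each line. All 4 lines share a 129xC57BL/6 background and the Rosa26Cre-ERT2/BirA-V5 alleles, that is, a tamoxifen-inducible Cre and a tagged biotin ligase placed at Rosa26, and all were grown with LIF on gelatin, without feeder cells. The TRIM71 knockout (TRIM71-/-) is null for an RNA-binding protein of early embryonic cells. The Mbnl1 3'UTR mutant carries 2 altered copies of the untranslated end of the mRNA for MBNL1, a splicing regulator. The Mbnl1 overexpression line holds a stable transgene, MBNL1::T2A::Puromycin, an MBNL1 reading frame joined to puromycin resistance. The line with none of these changes is called wild type. The labels do not say whether each line is 1 clone or whether the libraries of a line are separate cultures, so p-values cover library-to-library spread, which may be technical, and the alleles cannot be told apart from clonal differences.

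Neurons build axons and dendrites on microtubules, which are polymers of tubulin, and on neurofilaments. Stathmins bind tubulin dimers and favour microtubule disassembly. Stmn2 (SCG10) is known from growing axons and from human motor neuron disease. In human neurons its pre-mRNA is misspliced when the RNA-binding protein TDP-43 is lost. Neurofilament subunits give axons calibre, MAP2 and tau (Mapt) stabilise microtubules in dendrites and axons, doublecortin (Dcx) marks young migrating neurons, and GAP-43 lies under the membrane of growth cones. Embryonic stem cells are not neurons, and many neuronal genes are held low in them by the repressor REST.

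Total counts ran from 75056306 to 86508533 per library, and levels are given as CPM, counts for every 1000000 in a library, after scaling libraries by the trimmed mean of M values (TMM). At these depths 3 counts correspond to 0.0335 to 0.0398 CPM. A gene was called changed at an adjusted p under 0.05 in edgeR's quasi-likelihood test, adjusted by Benjamini-Hochberg over all 18055 genes, and all adjusted p-values below come from that test. Trim71, whose deleted part the labels do not give, had 101 and 105 CPM in the knockout, 695 and 694 CPM in the mutant and 644 and 667 CPM in overexpression, against 630 and 628 CPM in wild type. Mbnl1 stood at 48.8 and 50.9 CPM in the knockout, 28.6 and 27.5 CPM in the mutant and 193 and 195 CPM in overexpression, against 25.9 and 26.1 CPM in wild type, and reads of the transgene and of the gene itself were not told apart. The 10 stem cell markers Pou5f1, Sox2, Nanog, Zfp42, Esrrb, Klf4, Tdgf1, Dppa5a, Utf1 and Tfcp2l1 summed to 6508 and 6508 CPM in the knockout, 6177 and 6215 CPM in the mutant and 6290 and 6421 CPM in overexpression, against 5475 and 5404 CPM in wild type. Markers of other cell types summed to far less: 18 markers of postmitotic neurons gave 50.6 and 50.9 CPM in the knockout, 64.7 and 58.8 CPM in the mutant and 61.9 and 62.3 CPM in overexpression, against 60.5 and 61.1 CPM in wild type.

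Stmn2 fell 13.0-fold in the mutant and 8.65-fold in overexpression and was not called in the knockout. Gap43, Nefl, Nefm, Ina and Map2 were called lower than wild type in overexpression and in the knockout, and Gap43 and Map2 in the mutant too. Gap43, Nefl, Nefm and Map2 were also called lower in overexpression than in the knockout, whereas Ina was not. Tubb3 was called lower in the knockout and higher in overexpression. Mapt was higher than wild type in all 3 altered lines, Stmn3 was called higher in overexpression alone among the comparisons with wild type, and Dcx was almost absent outside the knockout.

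**Figure D1:**
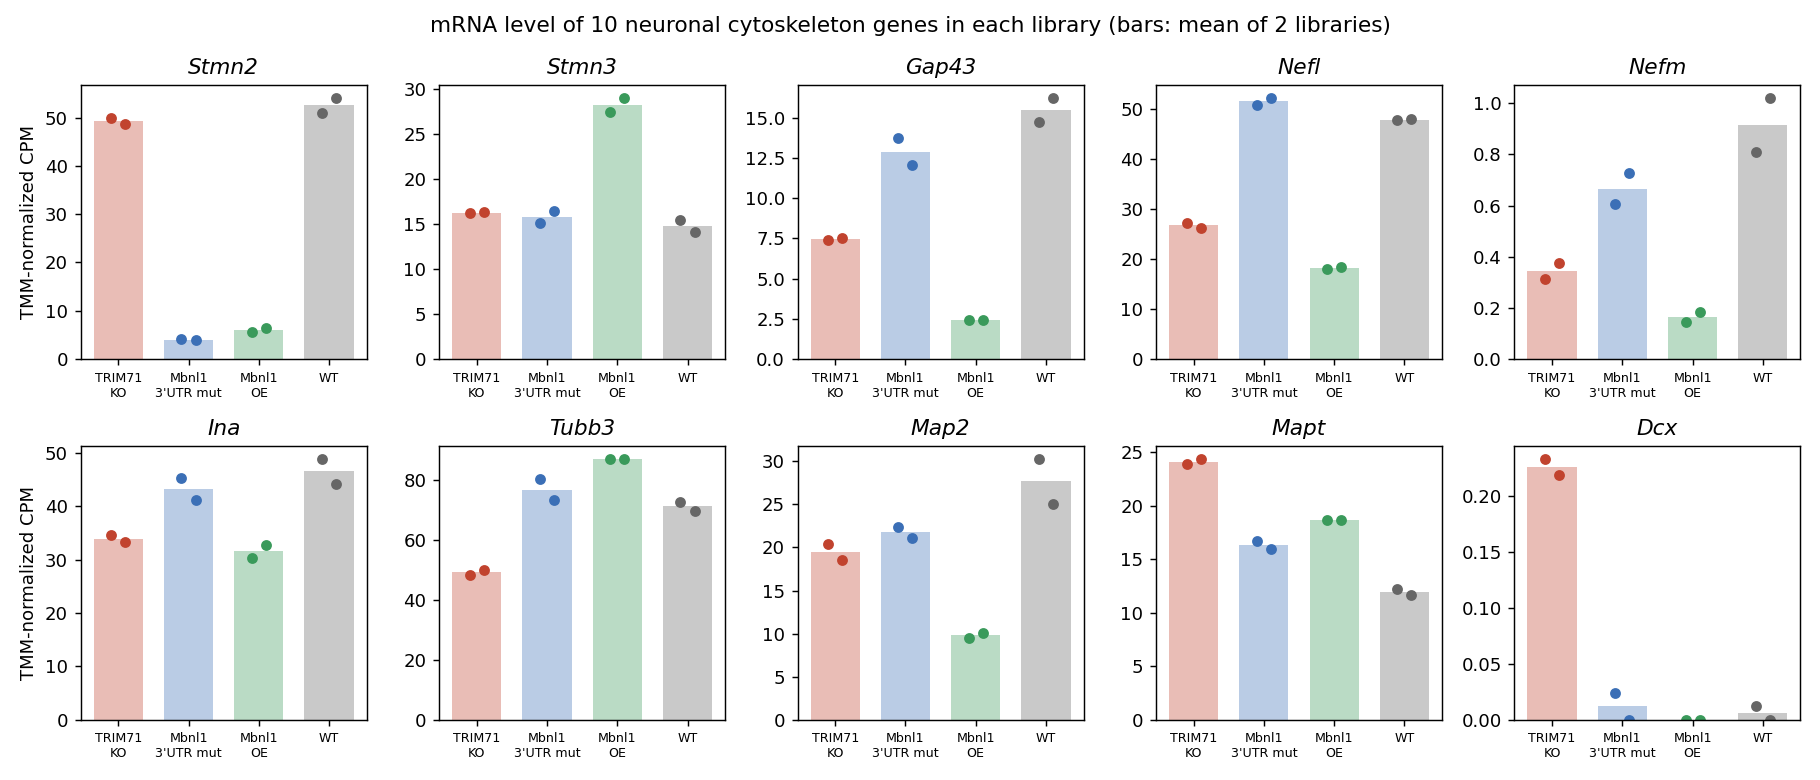
mRNA level of each of the 10 genes in the 4 groups (TRIM71 KO, Mbnl1 3'UTR mutant, Mbnl1 overexpression, wild type). The y axis is TMM-normalized CPM on a linear scale that differs between panels, points are libraries and bars the mean of 2 libraries. Stmn2 stands near 50 CPM in the knockout and in wild type and between 3.90 and 6.47 CPM in the other two groups.

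Dcx passed the filter on low counts only through the knockout libraries, where it was high, so it is left out of the counts and medians that follow. Of the other 9 genes, 1 was called higher (Mapt) and 6 lower in the knockout than in wild type (Gap43, Nefl, Nefm, Ina, Tubb3 and Map2), where 45.1% of all tested genes were called, 24.2% higher and 20.9% lower. In the mutant Mapt was called higher and 3 were called lower (Stmn2, Gap43 and Map2), against a background of 16.0%, of which 8.32% higher and 7.69% lower. That background was 2891 genes, and 1883 without wild-type replicate 1. In overexpression 3 were called higher (Stmn3, Tubb3 and Mapt) and 6 lower (Stmn2, Gap43, Nefl, Nefm, Ina and Map2), against 54.8% of all genes, 27.7% higher and 27.2% lower. With library size as the only scaling, the genes called higher and lower came to 1230 and 1553 in the mutant (1502 and 1389 with TMM) and to 5755 and 4047 in overexpression (4994 and 4907 with TMM), and the members' counts stayed the same. The median log2 change of the 9 was -0.51 for the knockout, -0.11 for the mutant and -1.39 for overexpression, beside -0.01 in each comparison for all tested genes. Without regard to sign, the median change was 0.53, 0.26 and 1.39 on the log2 scale in that order of lines, beside 0.23, 0.12 and 0.28 for all tested genes. These 3 comparisons share their wild-type libraries, so their values are set side by side and not counted as separate evidence. The 10 genes together summed to 229 and 226 CPM in the knockout, 249 and 237 CPM in the mutant and 200 and 205 CPM in overexpression, against 294 and 284 CPM in wild type. The lower sum of the mutant largely follows Stmn2 alone, at 4.15 and 3.90 CPM there, against 51.0 and 54.0 CPM in wild type. In bulk RNA, fewer cells carrying these transcripts and less of each transcript per cell cannot be told apart.

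**Figure D2:**
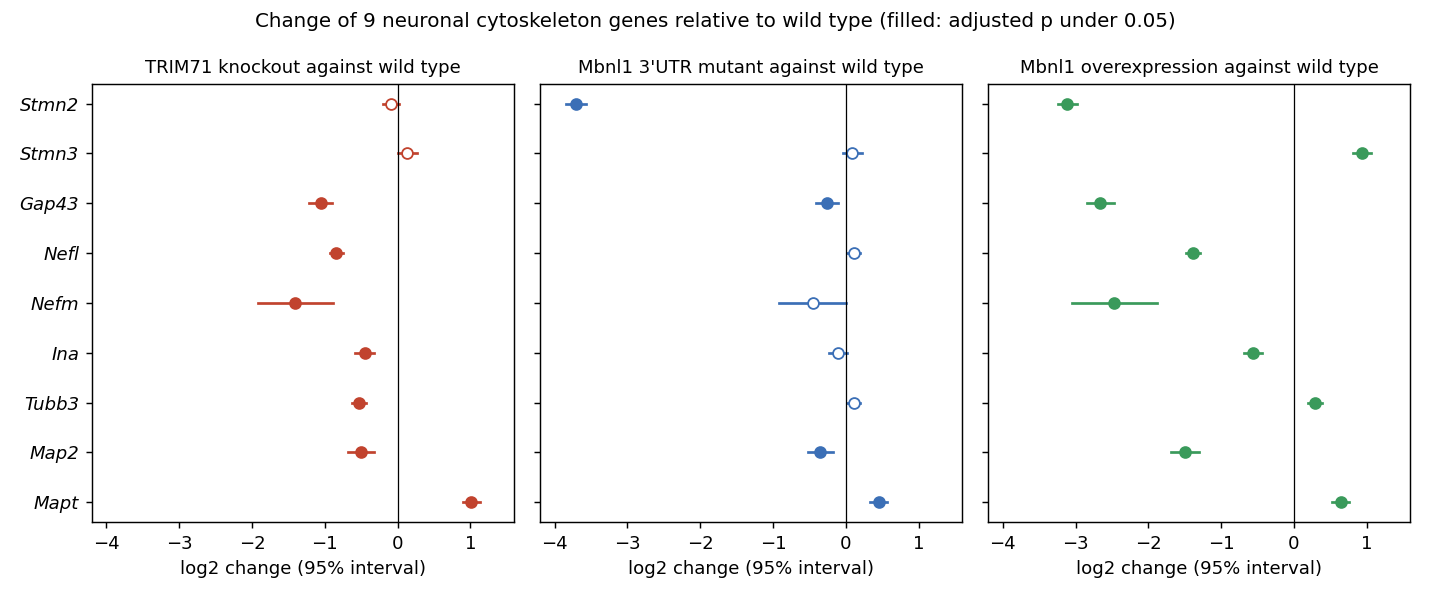
Log2 change against wild type (x axis) with its 95% interval from edgeR's quasi-likelihood fit for 9 of the 10 genes, in the TRIM71 knockout, the Mbnl1 3'UTR mutant and Mbnl1 overexpression. Filled points passed an adjusted p of 0.05. Stmn2 lies at -0.09, -3.70 and -3.11 from left to right, and Dcx is left out because it had 1 count in wild type.

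Stmn2 (ENSMUSG00000027500.10, mm10 chromosome 3, 8509360 to 8561606, plus strand) measured 49.9 and 48.6 CPM in the knockout, 4.15 and 3.90 CPM in the mutant and 5.68 and 6.47 CPM in overexpression, against 51.0 and 54.0 CPM in wild type. The mutant and overexpression libraries lay far below the wild-type libraries, and the knockout libraries lay just below them without overlap. Behind these levels stood 4286 and 4005 counts for the knockout, 343 and 322 counts for the mutant and 509 and 562 counts for overexpression, against 4023 and 4075 in wild type. The log2 change was -3.70 (SE 0.0654, adjusted p = 1.25e-16) in the mutant and -3.11 (SE 0.0614, adjusted p = 1.75e-16) in overexpression. In the knockout it was -0.09 (95% interval -0.20 to 0.02, adjusted p = 0.163), so a fall of more than 0.20 on the log2 scale lies outside the interval. In the mutant Mbnl1 mRNA was not called against wild type (log2 change 0.11, adjusted p = 0.086). The knockout had more Mbnl1 mRNA than the mutant (log2 difference 0.83, adjusted p = 2.61e-11) and 12.2-fold more Stmn2 (adjusted p = 6.25e-17). Overexpression, with 6.91-fold more Mbnl1 mRNA than the mutant, had 1.51-fold more Stmn2 than the mutant (log2 difference 0.59, SE 0.0751, adjusted p = 3.6e-06). These counts do not measure MBNL1 protein, and whether MBNL1 has a part in the level of Stmn2 was not tested.

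Among the 12840 tested genes that averaged at least 1 CPM, 2 had a more negative log2 change than Stmn2 in the mutant and 15 in overexpression, whereas 4243 did in the knockout. Of these genes, 6 were called lower by 4-fold or more in both the mutant and overexpression: Col5a2, Pla2g4a, Prss23, Stmn2, Tagln and Zfp951. In the knockout, 3 of the 6 were called higher, 1 lower, and Prss23 and Stmn2 were not called. With a bound of 2-fold in place of 4-fold the number was 55, of which 30 were called higher in the knockout, 17 lower and 8 not called. The gene whose log2 CPM followed Stmn2 most closely over the 8 libraries was Thbs1, a secreted matrix glycoprotein gene, with a Pearson r of 0.995 among 11607 genes compared. It stood at 14.7 and 13.6 CPM in the knockout, 3.75 and 3.64 CPM in the mutant and 4.21 and 3.95 CPM in overexpression, against 13.3 and 15.1 CPM in wild type. Thbs1 therefore had the same order of high and low lines over a smaller range. The next 4 were Zfp951 (r 0.991), the smooth muscle actin-binding gene Tagln (0.984), Capsl (0.983) and Prag1 (0.983). With 8 libraries in 4 groups, such an r mostly describes the 4 group means, and these genes lie on chromosomes 2, 5, 9, 15 and 8.

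On chromosome 3, the tested genes nearest to Stmn2 were Gm5841, 180 kb to its left, and Hey1, a transcriptional repressor gene of the Notch pathway, 102 kb to its right. Hey1 averaged 5.15 CPM in the knockout, 1.71 CPM in the mutant and 0.80 CPM in overexpression, against 2.95 CPM in wild type. It was called in all 3 lines, with log2 changes of 0.80 in the knockout (adjusted p = 4.91e-05), -0.78 in the mutant (adjusted p = 0.000781) and -1.88 in overexpression (adjusted p = 1.55e-08). Gm5841 was called in the knockout alone (log2 change 0.44, adjusted p = 0.0196) and had log2 changes of -0.18 in the mutant and 0.05 in overexpression. Within 500 kb of Stmn2, 5 other genes were tested: 3 were higher and 0 lower in the knockout, 0 higher and 2 lower in the mutant, and 0 higher and 3 lower in overexpression. Within 5 Mb, where 23 genes were tested, their median log2 change was -0.14 in the mutant and -0.33 in overexpression. Whether the neighbourhood has a part in the level of Stmn2 was not tested.

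Stmn3 (ENSMUSG00000027581.12, chromosome 2, 181306459 to 181314500, minus strand), which encodes another neuronal stathmin, did not follow Stmn2. It stood at 16.2 and 16.3 CPM in the knockout, 15.2 and 16.4 CPM in the mutant and 27.5 and 29.0 CPM in overexpression, against 15.5 and 14.1 CPM in wild type. The overexpression libraries lay above all others, and the mutant and wild-type libraries overlapped. The log2 change was 0.93 in overexpression (SE 0.0587, adjusted p = 3.84e-10), 0.13 in the knockout (95% interval 0.01 to 0.26, adjusted p = 0.082) and 0.09 in the mutant (95% interval -0.04 to 0.22, adjusted p = 0.357). Without wild-type replicate 1 the knockout value was 0.20 and passed (adjusted p = 0.0315). The ratio of Stmn2 CPM to Stmn3 CPM was 3.08 and 2.98 in the knockout libraries, 0.274 and 0.238 in the mutant libraries and 0.207 and 0.223 with overexpression, against 3.29 and 3.82 in wild type.

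Stmn3 lies near the end of chromosome 2, among genes that were also higher in overexpression. Within 500 kb of Stmn3, 34 other genes were tested, and 27 of them were higher and 2 lower in overexpression, with a median log2 change of 0.55. The same 34 genes had a median log2 change of 0.02 in the knockout and -0.03 in the mutant. Within 5 Mb, 63 of 95 genes were higher and 4 lower in overexpression (median 0.45). The gene most like Stmn3 over the 8 libraries, Pcif1 (r 0.998), is on the same chromosome and had a log2 change of 0.64 in overexpression (adjusted p = 2.48e-09). How far the rise of Stmn3 belongs to this stretch was not tested.

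**Figure D3:**
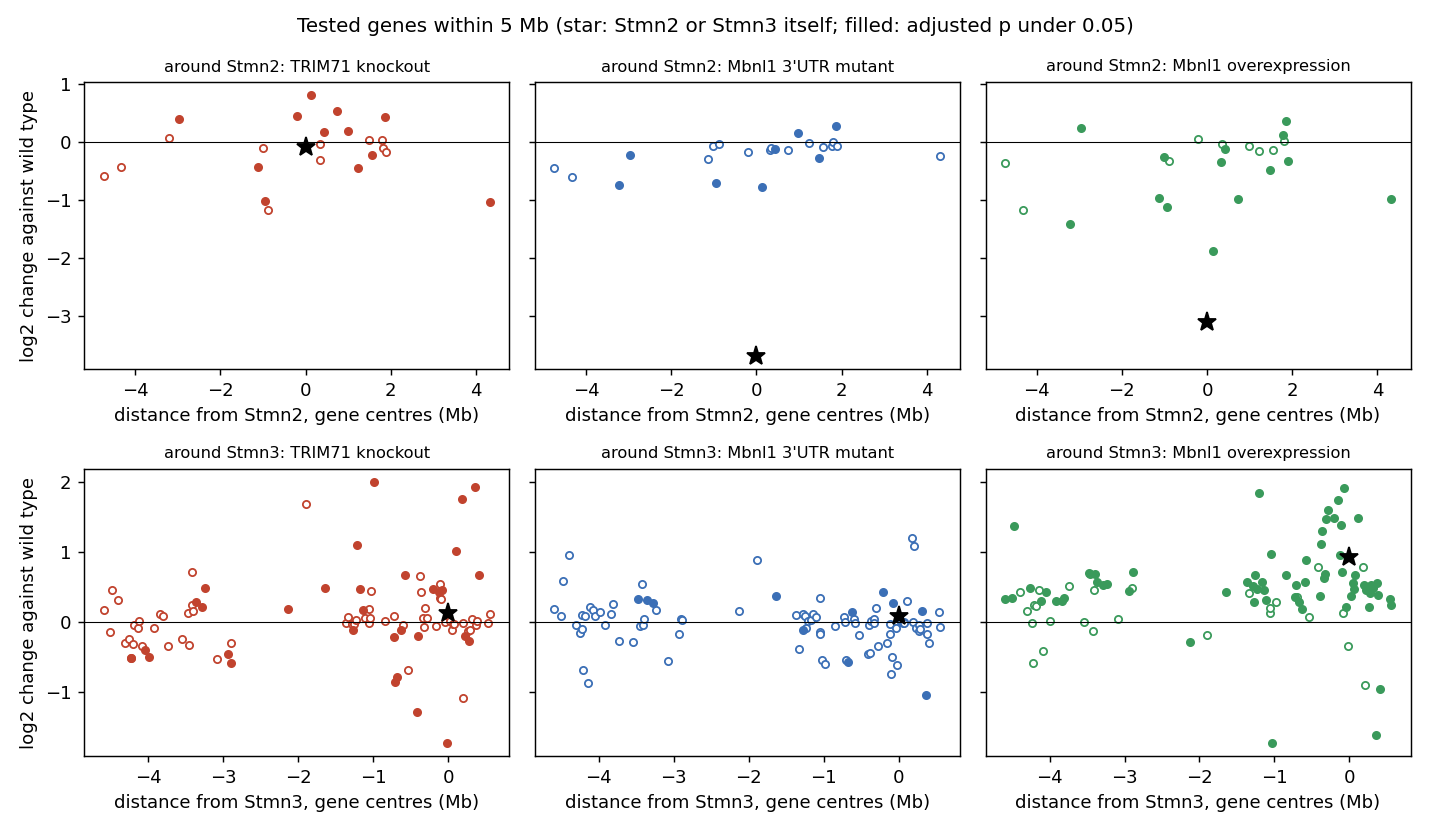
Log2 change against wild type (y axis) of tested genes within 5 Mb of Stmn2 (top) and Stmn3 (bottom) by distance between gene centres in Mb (x axis), in the TRIM71 knockout, the Mbnl1 3'UTR mutant and Mbnl1 overexpression. The star is Stmn2 or Stmn3, and filled points passed an adjusted p of 0.05. Stmn2 lies below all its neighbours in the mutant and overexpression, while Stmn3 at 0.93 in overexpression lies among neighbours of which most were higher.

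The other two stathmin genes were read beside them. Stmn1, the widely expressed stathmin, stood at 93.5 and 95.6 CPM in the knockout, 170 and 151 CPM in the mutant and 91.4 and 90.5 CPM in overexpression, against 157 and 154 CPM in wild type. In the knockout it fell by 0.72 on the log2 scale (adjusted p = 1.32e-09), with a fall of 0.77 in overexpression (adjusted p = 2.24e-10), and it was not called in the mutant (log2 change 0.05, adjusted p = 0.51). Stmn4, singled out after its values were seen, was close to the limit of detection, with 0.198 and 0.158 CPM in the knockout, 0.0605 and 0.0606 CPM in the mutant and 0.0223 and 0.0345 CPM in overexpression, against 0.329 and 0.239 CPM in wild type. Its fitted log2 change was -2.21 in the mutant, -3.26 in overexpression and -0.67 in the knockout. Stmn4 passed the filter only through the knockout and wild-type libraries, where it was higher, so no p is given. In overexpression its level of about 3 counts a library makes the fitted size uncertain.

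Gap43 (ENSMUSG00000047261.9, chromosome 16, 42248442 to 42340651, minus strand) encodes the growth cone protein GAP-43. It stood at 7.41 and 7.49 CPM in the knockout, 13.8 and 12.0 CPM in the mutant and 2.44 and 2.45 CPM in overexpression, against 14.7 and 16.2 CPM in wild type. The 4 groups did not overlap. Gap43 fell 6.32-fold in overexpression (log2 change -2.66, SE 0.0859, adjusted p = 7.4e-14) and 2.08-fold in the knockout (log2 change -1.05, SE 0.0748, adjusted p = 4.05e-09). Only 38 of the 12840 genes of at least 1 CPM had a more negative log2 change in overexpression, and 151 did in the knockout. In the mutant the log2 change was -0.26 (adjusted p = 0.0168), a call that was lost without wild-type replicate 2 (adjusted p = 0.166), without mutant replicate 2 (adjusted p = 0.151) and with DESeq2 (adjusted p = 0.0602). No other gene was tested within 500 kb of Gap43.

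MBNL proteins bind RNA at short motifs of GC between pyrimidines, and 2 of the lines alter Mbnl1. Shown for this reason are the richest stretches of 30 bases in the longest mRNA of the 4 genes above 1 CPM with the largest falls in overexpression, all within coding exons. The motifs, in capitals, are TGCT and its variants in which C replaces the first T, the last T or both, searched on the RNA strand written as DNA, and neighbours may share a base. Sequences are from GENCODE M21 (GRCm38, mm10), at chr3:8541865-8541894 on the plus strand for Stmn2, chr16:42291887-42291916 on the minus strand for Gap43, chr1:66401460-66401489 on the plus strand for Map2 and chr14:68084812-68084841 on the plus strand for Nefl.
Stmn2: tgtctaTGCTgtcactgatcTGCTccTGCT
Gap43: gTGCCTGCTGCTgtcactgaTGCTGCTGCC
Map2: taatcTGCCaccttCGCCaccaccatCGCC
Nefl: CGCTtcaccgTGCTaaccgagagCGCCGCC
The Gap43 window holds 6 motifs, and 7.33% of 14615 tested coding genes have a window with at least as many. The Nefl window holds 4, a number reached by 51.3% of genes, and the Stmn2 and Map2 windows hold 3, reached by 89.0%. Over the whole mRNA, Stmn2 has 17.9 motifs per kb, Gap43 17.6, Map2 11.8 and Nefl 20.1, beside a median of 15.7 over genes. Stmn3, Tubb3 and Mapt, which were called higher in overexpression, have 24.65, 19.27 and 18.66 per kb. Their richest windows hold 4, 4 and 6 motifs. A link between motifs and the direction of change was not tested. These are letter matches and not binding sites.

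Among the intermediate filament genes, Nefl (ENSMUSG00000022055.7, chromosome 14, 68083863 to 68089095, plus strand), the light neurofilament subunit, stood at 27.2 and 26.2 CPM in the knockout, 50.8 and 52.1 CPM in the mutant and 18.1 and 18.4 CPM in overexpression, against 47.7 and 47.9 CPM in wild type. The overexpression and knockout libraries lay below wild type, and the mutant libraries lay just above it. Nefl fell 2.62-fold in overexpression (log2 change -1.39, SE 0.0445, adjusted p = 6.89e-14) and 1.79-fold in the knockout (-0.84, SE 0.0434, adjusted p = 7.12e-11). In the mutant the log2 change was 0.11 (95% interval 0.02 to 0.20) and did not pass after adjustment (adjusted p = 0.0966).

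Nefm (ENSMUSG00000022054.7, chromosome 14, 68082590 to 68124846, minus strand), the medium subunit, was read from few counts: 27 and 31 for the knockout, 50 and 60 for the mutant and 13 and 16 for overexpression, against 64 and 77 in wild type. These gave 0.314 and 0.376 CPM in the knockout, 0.604 and 0.727 CPM in the mutant and 0.145 and 0.184 CPM in overexpression, against 0.811 and 1.02 CPM in wild type. No 2 groups overlapped, although the spread within a group was wide beside the distance to its neighbour. Nefm had a log2 change of -1.40 in the knockout (SE 0.243, adjusted p = 0.000134) and of -2.47 in overexpression (SE 0.276, adjusted p = 6.51e-07), both called. The mutant value of -0.46 did not pass (adjusted p = 0.181). In the annotation the exons of Nefl and Nefm overlap on opposite strands. Noncoding genes on the strand opposite to a well expressed coding gene had a median of 0.393 counts per kb here, against 34.6 for those on the same strand, so the counting kept strands apart.

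Ina (ENSMUSG00000034336.3, chromosome 19, 47014698 to 47025327, plus strand) encodes α-internexin, a partner of the neurofilament subunits. It stood at 34.6 and 33.2 CPM in the knockout, 45.3 and 41.1 CPM in the mutant and 30.3 and 32.7 CPM in overexpression, against 48.9 and 44.1 CPM in wild type. The mutant and wild-type libraries overlapped, and the knockout and overexpression libraries lay below both. Ina was called lower in the knockout, at a log2 change of -0.45 (SE 0.0588, adjusted p = 1.07e-05), and in overexpression, at -0.56 (SE 0.0589, adjusted p = 6.52e-07), and its mutant value was -0.11 (adjusted p = 0.25).

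The fall of these 3 did not extend to all genes of that kind. Of 6 further intermediate filament genes tested (Nefh, Prph, Nes, Vim, Gfap and Sync), 3 were higher and 2 lower in the knockout, 3 higher and 1 lower in the mutant, and 5 higher and 0 lower in overexpression. Prph, the filament gene of peripheral neurons, averaged 6.97 ± 0.356 CPM in the knockout, 4.83 ± 0.624 CPM in the mutant and 13.7 ± 0.974 CPM in overexpression, against 3.70 ± 0.147 CPM in wild type (SD, n = 2 each). It rose 3.70-fold in overexpression (adjusted p = 1.05e-11) and 1.88-fold in the knockout (adjusted p = 5.16e-07). Nefh, the heavy neurofilament subunit, moved in opposite directions in the 2 lines in which Nefl and Nefm fell: it rose by 0.76 on the log2 scale in overexpression (adjusted p = 3.29e-09) and fell by 0.43 in the knockout (adjusted p = 1.06e-05). Vim rose 1.39-fold in the knockout (adjusted p = 2.39e-07) and 1.36-fold in the mutant (adjusted p = 2.65e-06), and less in overexpression (log2 change 0.24, adjusted p = 0.000325). Nes, a neural progenitor filament gene, fell 1.46-fold in the mutant (adjusted p = 1.76e-05) and less in the knockout (log2 change -0.27, adjusted p = 0.00182).

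**Figure D4:**
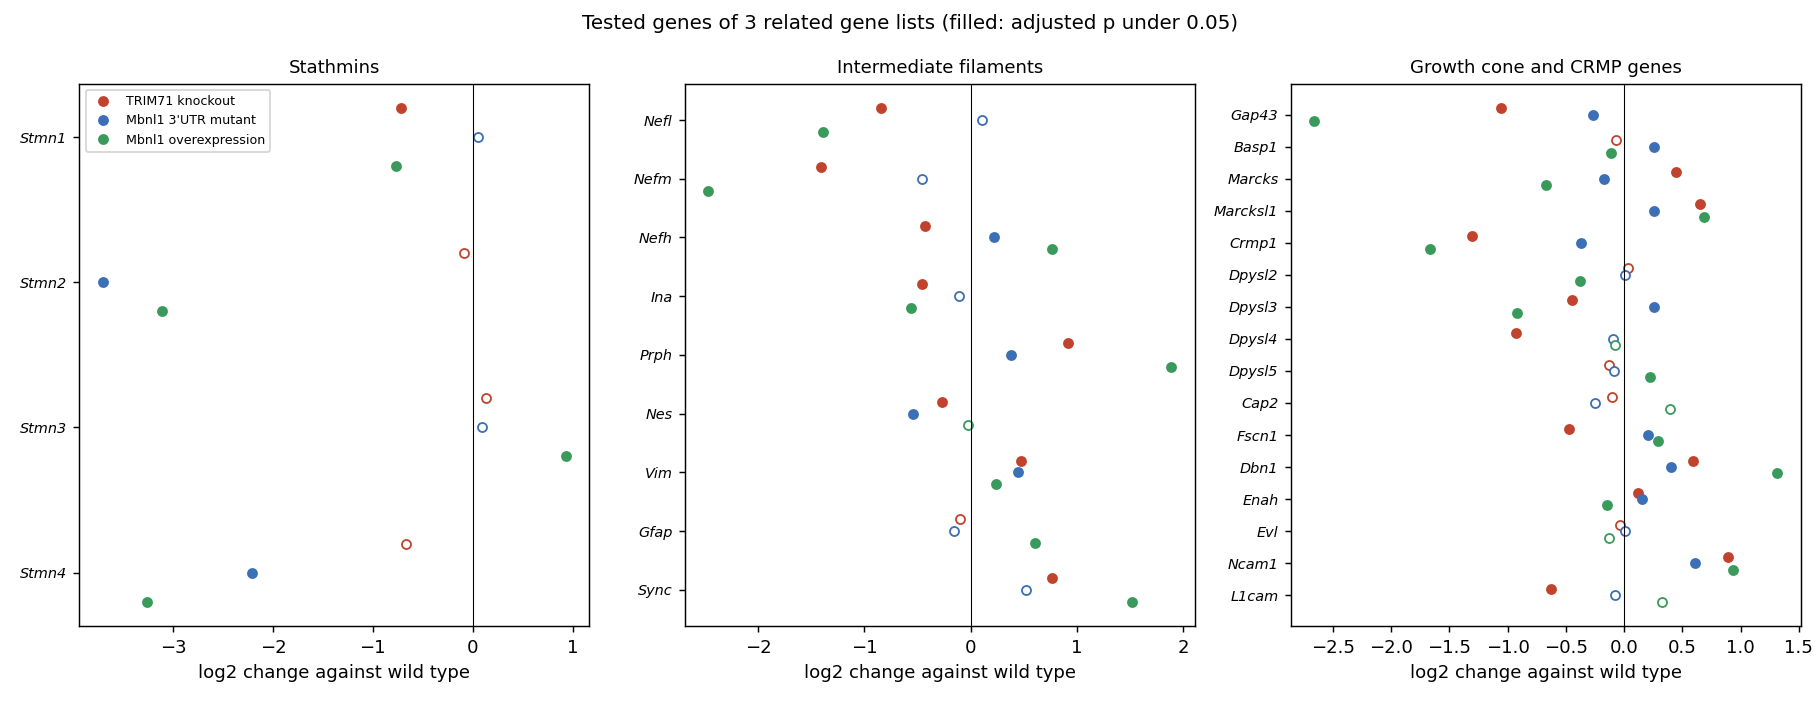
Log2 change against wild type (x axis) of each tested gene in 3 lists: stathmins, intermediate filaments, and growth cone and collapsin response mediator (CRMP) genes, by line. Filled points passed an adjusted p of 0.05. In overexpression Nefl, Nefm and Ina lie left of 0 and Nefh, Prph and Sync right of it, and Gap43 at -2.66 lies furthest left in its list.

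Tubb3 (ENSMUSG00000062380.3, chromosome 8, 123411424 to 123422015, plus strand) encodes the β-tubulin isotype used as a neuronal marker. It stood at 48.5 and 50.2 CPM in the knockout, 80.3 and 73.4 CPM in the mutant and 87.2 and 87.2 CPM in overexpression, against 72.8 and 69.9 CPM in wild type. The knockout libraries lay below all others and the overexpression libraries above all others. Tubb3 was called lower in the knockout (log2 change -0.53, SE 0.0443, adjusted p = 2.98e-08) and higher in overexpression (0.29, SE 0.0434, adjusted p = 1.93e-05). The mutant value was 0.11 (95% interval 0.02 to 0.20, adjusted p = 0.109), and it passed without mutant replicate 2 (0.17, adjusted p = 0.00731). Tubulin genes are alike in sequence, so reads may have been assigned to the wrong copy or dropped.

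Of the other 14 tubulin genes tested, 4 were higher and 4 lower in the knockout, 1 higher and 4 lower in the mutant, and 4 higher and 3 lower in overexpression. Tubb2a, another β-tubulin gene of the nervous system, stood at 30.5 and 31.2 CPM in the knockout, against 21.1 and 21.1 CPM in wild type, a rise of 0.55 on the log2 scale (adjusted p = 3.74e-08). Among tubulin genes of at least 1 CPM, Tubb6 fell most in the mutant (log2 change -0.69, adjusted p = 1.38e-08). It was also called lower in the knockout (-0.22) and in overexpression (-0.14). Tuba1a, the main α-tubulin gene of young neurons, stood at 124 and 123 CPM in overexpression, against 213 and 195 CPM in wild type (log2 change -0.72, adjusted p = 1.03e-10). Smaller falls of Tuba1a were called in the knockout (-0.19) and in the mutant (-0.16).

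The 2 classic markers of dendrites and axons, Map2 and Mapt, went opposite ways. Map2 (ENSMUSG00000015222.13, chromosome 1, 66175273 to 66442583, plus strand) measured 20.4 and 18.5 CPM in the knockout, 22.4 and 21.1 CPM in the mutant and 9.55 and 10.1 CPM in overexpression, against 30.3 and 25.0 CPM in wild type. All 3 altered lines lay below both wild-type libraries, which themselves differed by more than the libraries of any altered line. Map2 fell 2.83-fold in overexpression (adjusted p = 2.17e-08) and 1.42-fold in the knockout (log2 change -0.51, SE 0.0816, adjusted p = 0.000298). In the mutant it was called at -0.35 (adjusted p = 0.012), a call that was lost without wild-type replicate 1 (-0.20, adjusted p = 0.0833) and without mutant replicate 2 (adjusted p = 0.0819).

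Mapt (ENSMUSG00000018411.13, chromosome 11, 104231390 to 104332090, plus strand) encodes tau. It stood at 23.9 and 24.4 CPM in the knockout, 16.8 and 16.0 CPM in the mutant and 18.7 and 18.7 CPM in overexpression, against 12.2 and 11.7 CPM in wild type. No 2 groups overlapped, and every altered library lay above both wild-type libraries. Mapt rose 2.02-fold in the knockout (log2 change 1.01, SE 0.0535, adjusted p = 9.25e-11), 1.37-fold in the mutant (0.45, SE 0.0547, adjusted p = 1.45e-05) and 1.56-fold in overexpression (0.64, SE 0.0541, adjusted p = 1.71e-08). The ratio of Map2 CPM to Mapt CPM was 0.852 and 0.760 in the knockout libraries, 1.34 and 1.32 in the mutant libraries and 0.512 and 0.538 with overexpression, against 2.48 and 2.14 in wild type. Exon inclusion in Mapt and Map2 pre-mRNA was not analysed here, because the files hold counts per gene.

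Dcx (ENSMUSG00000031285.10, chromosome X, 143855842 to 143933311, minus strand) had 20 and 18 counts in the knockout, 2 and 0 counts in the mutant and 0 and 0 counts in overexpression, against 1 and 0 in wild type. It entered the test only through the knockout libraries, where it reached 0.233 and 0.219 CPM. Summed over libraries, 38 counts in the knockout against 1 in wild type gave a ratio of 34.9 after scaling (95% interval 5.89 to 1413, counting error only). No p is given, since the filter kept Dcx for its knockout counts. Against 2 counts in the mutant the ratio was 18.7 (95% interval 4.82 to 160). Against 0 counts in overexpression no ratio can be given, and the exact 95% lower limit of the ratio was 10.3. With 3 counts over the group as the floor the ratio was 13.3. At the same floor it was 11.6 against wild type and 12.4 against the mutant. No fold is given among the other 3 groups. Capn6, the nearest tested gene on the left, 28.4 kb away, was also higher in the knockout (1.25 CPM, against 0.214 CPM in wild type, log2 change 2.54, adjusted p = 2.75e-07). It was lower in overexpression at 0.0453 CPM (log2 change -2.20, adjusted p = 0.000631).

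Of 20 other genes for microtubule-associated proteins, 4 were higher and 9 lower in the knockout, 2 higher and 2 lower in the mutant, and 7 higher and 9 lower in overexpression. Map1a and Map1b, whose products share a light chain and bind neuronal microtubules, parted in overexpression. Map1a averaged 84.6 ± 5.06 CPM in overexpression, against 28.9 ± 1.70 CPM in wild type (log2 change 1.55, adjusted p = 5.88e-10). Map1b averaged 91.0 ± 0.253 CPM in overexpression, against 182 ± 9.75 CPM in wild type (lower in both libraries, adjusted p = 1.18e-12). Map6, which protects microtubules from cold, was called lower in each line, with log2 changes of -0.95 (knockout, adjusted p = 2.59e-06), -0.38 (mutant, adjusted p = 0.0229) and -0.98 (overexpression, adjusted p = 1.07e-06).

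Among 15 other growth cone genes, 5 were higher and 5 lower in the knockout, 7 higher and 2 lower in the mutant, and 5 higher and 6 lower in overexpression. Crmp1, a collapsin response mediator of axon guidance, moved like Gap43: it stood at 8.35 and 7.37 CPM in the knockout, 15.0 and 15.1 CPM in the mutant and 5.81 and 6.49 CPM in overexpression, against 19.5 and 19.5 CPM in wild type. Its log2 changes were -1.31 in the knockout (adjusted p = 9.24e-11), -0.37 in the mutant (adjusted p = 0.000618) and -1.66 in overexpression (adjusted p = 2.05e-12). Dbn1, an actin-binding gene of dendritic spines, and the adhesion gene Ncam1 moved the other way, with log2 changes in overexpression of 1.32 (adjusted p = 8.04e-11) and 0.94 (adjusted p = 4.23e-10).

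Of 14 axonal transport motor genes, 6 were higher and 4 lower in the knockout, 3 higher and 2 lower in the mutant, and 6 higher and 4 lower in overexpression. Kif1a, the kinesin of synaptic vesicle precursors, stood at 5.89 and 5.44 CPM in the knockout, 9.75 and 8.74 CPM in the mutant and 12.3 and 12.0 CPM in overexpression, against 16.4 and 15.7 CPM in wild type. Its fall was 2.84-fold in the knockout (adjusted p = 2.44e-11) and 1.74-fold in the mutant (adjusted p = 2.45e-07). A smaller fall was called in overexpression (log2 change -0.40, adjusted p = 4.69e-05), an order of lines that differs from that of Gap43. Kif5a, a kinesin that carries neurofilaments, rose by 0.88 on the log2 scale in overexpression (adjusted p = 7.21e-10).

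Compared directly between the altered lines, with Dcx left out, 4 of the 9 genes were higher and 5 lower in overexpression than in the mutant. Of all tested genes 52.1% were called there, 26.7% higher and 25.4% lower. In genes that is 4822 higher and 4581 lower, a split that became 5816 and 3371 with library size as the only scaling. The members' counts of 4 and 5 stayed the same. Gap43 differed most, 5.27-fold lower in overexpression (adjusted p = 5.51e-13), followed by Nefm (4.03-fold), Nefl (2.82-fold) and Map2 (2.22-fold). Stmn2, Stmn3, Tubb3 and Mapt were the 4 that were higher in overexpression, with log2 differences of 0.59, 0.84, 0.18 and 0.19. Between the knockout and the mutant, with Dcx left out, 2 were higher (Stmn2 and Mapt) and 5 lower (Gap43, Nefl, Nefm, Ina and Tubb3) in the knockout, where 45.7% of all genes were called, 24.4% higher and 21.3% lower. Between the knockout and overexpression, again without Dcx, 6 were higher and 2 lower (Stmn3 and Tubb3) in the knockout, where 54.8% of all genes were called, 27.5% higher and 27.2% lower. The 4974 higher and 4916 lower genes of that background became 4191 and 5591 with library size as the only scaling. Of the 9, Ina alone was not called there (log2 difference 0.11, 95% interval -0.02 to 0.23, adjusted p = 0.143). The Nefm difference of the knockout from the mutant (log2 -0.95) lost its call without knockout replicate 1 (-0.82, adjusted p = 0.0577). That from overexpression (1.06) lost it without knockout replicate 2 (0.93, adjusted p = 0.0712) and without overexpression replicate 1 (0.90, adjusted p = 0.0788), so both kept their direction at a similar size.

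Across the 8 libraries, Gap43, Nefl, Nefm, Ina and Map2 had Pearson correlations of 0.861 to 0.968 with each other in log2 CPM, and Stmn3 had -0.733 to -0.955 with these 5. Stmn2 had 0.0858 to 0.511 with them and -0.711 with Tubb3. These values describe 4 pairs of libraries that share their culture conditions and depth. By the same measure, the genes most like 7 of the others were Zfp819 for Gap43, Ipo11 for Nefl, Snora43 for Nefm, Slc38a2 for Ina, Ksr1 for Tubb3, Glrx3 for Map2 and Hspb2 for Mapt, with r of 0.993 to 0.999.

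Levels can be compared between genes only per length. Per kb of annotated exons, Tubb3 was the highest of the 10 in every group, at 26.4 ± 0.609 CPM per kb for the knockout, 41.2 ± 2.61 for the mutant and 46.7 ± 0.000508 for overexpression, against 38.2 ± 1.10 in wild type (SD, n = 2 each). In wild type Ina (14.4 ± 1.04 CPM per kb), Nefl (14.1 ± 0.05) and Stmn3 (13.0 ± 0.845) followed, with libraries of Ina overlapping those of both others and Stmn3 just below Nefl without overlap. Then came Gap43 (10.2 ± 0.689) and Stmn2 (9.37 ± 0.388), whose nearest libraries stood at 9.67 and 9.65. Map2 (1.68 ± 0.227) and Mapt (1.59 ± 0.0509) could not be ordered, and Nefm (0.158 ± 0.0257) and Dcx (0.000501 ± 0.000708) were lowest. Among 17909 tested genes with a length, Stmn2 lay at the 72.0th percentile in the knockout, the 34.4th in the mutant and the 38.4th in overexpression, against the 73.3rd in wild type. Its place among the 10 was 4 for the knockout, 8 for the mutant and 7 for overexpression, against 6 in wild type. The identifier version of 5 of the genes (Nefm, Tubb3, Map2, Mapt and Dcx) differs between the files and the annotation used for lengths, so their values per kb may be off. The lengths also merge the exons of all annotated transcripts. For Stmn2 this gives 5602 bases, against 2073 for its longest coding mRNA, and for Map2 16449 against 6258. The place and percentile of Stmn2 and the order of the genes therefore depend on the length used.

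Regulators of neuronal genes were read beside the 10. Rest stood at 679 and 679 CPM in the knockout, 865 and 809 CPM in the mutant and 767 and 777 CPM in overexpression, against 739 and 768 CPM in wild type. Its log2 change was -0.15 in the knockout (adjusted p = 0.00334), 0.15 in the mutant (adjusted p = 0.00992) and 0.03 in overexpression (adjusted p = 0.461). Of 18 regulators tested, 9 were higher and 3 lower in the knockout, 3 higher and 2 lower in the mutant, and 5 higher and 8 lower in overexpression. Rcor1, which encodes the REST corepressor CoREST, rose 1.85-fold in the knockout (adjusted p = 3.01e-11) and by 0.42 on the log2 scale in overexpression (adjusted p = 1.82e-07). Ptbp2, a neuronal splicing regulator, was called lower in each line. Its log2 changes were -0.46 in the knockout (adjusted p = 4.7e-06), -0.38 in the mutant (adjusted p = 0.000159) and -0.89 in overexpression (adjusted p = 1.02e-09). Tardbp, the TDP-43 gene, was chosen for its link to human STMN2 pre-mRNA, a link that was not tested in these mouse cells. It stood at 444 and 442 CPM in the knockout, 463 and 460 CPM in the mutant and 414 and 404 CPM in overexpression, against 422 and 465 CPM in wild type. Only the overexpression value passed (log2 change -0.12, adjusted p = 0.0214), and its libraries lay below the others.

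REST binds a long element, in whose left and right parts TCAGCACC and GGACAGC occur, and promoters of 5 of the 10 genes (Stmn3, Ina, Tubb3, Map2 and Dcx) were at hand in RefSeq (GRCm38.p6). On both strands, the first half-site was found in Tubb3 and in 1.65% of 32851 promoters of the same length, and the other in Tubb3 and Map2 and in 6.56% of promoters. In Tubb3 the 2 matches lie at positions -121 and 12 from the RefSeq start, so they are not side by side. GENCODE M21 starts the gene earlier, at 123411424, so the match to the first lies inside the gene there. As with the motifs above, letter matches are not binding sites. The Tubb3 match to the first, in capitals as the reverse complement, is shown because Tubb3 alone held both, at chr8:123411421-123411450 on the plus strand.
Tubb3: atctcggtgccGGTGCTGAtgctgcagagc

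Markers of other cell types were read in the same way. Beside their counts, 45.1% of all tested genes were called in the knockout, 24.2% higher and 20.9% lower. In the mutant 16.0% were called (8.32% higher, 7.69% lower), and in overexpression 54.8% (27.7% higher, 27.2% lower). Neural progenitor markers (12 listed, 7 tested) summed to 40.8 and 41.9 CPM in the knockout, 50.3 and 46.2 CPM in the mutant and 63.4 and 61.3 CPM in overexpression, against 56.2 and 62.6 CPM in wild type. In the knockout, 6 of the 7 were lower and 0 higher, with Pax6 at a log2 change of -1.25 (adjusted p = 8.46e-09) and Sox1 at -1.05 (adjusted p = 6.07e-09). In overexpression 2 were higher and 3 lower, and in the mutant 0 higher and 2 lower. Of 14 tested neuron markers, 1 was higher and 4 lower in the knockout, 1 higher and 2 lower in the mutant, and 3 higher and 5 lower in overexpression. The proneural gene Neurod1 stood at 2.00 and 2.22 CPM in the knockout, 3.87 and 3.09 CPM in the mutant and 3.66 and 3.19 CPM in overexpression, against 5.30 and 5.33 CPM in wild type. Elavl3 went the other way and was called higher in the mutant (log2 change 0.39, adjusted p = 0.00612) and in overexpression (0.89, adjusted p = 1.36e-07). Slc17a6 had 0 counts in the mutant and in overexpression, and Neurod2 had 0 counts in wild type. Markers of neural crest and of sensory and motor neurons (8 of 10 tested, Prph among them) summed to 43.9 and 45.7 CPM in the knockout, 57.5 and 52.0 CPM in the mutant and 55.8 and 57.0 CPM in overexpression, against 39.2 and 37.3 CPM in wild type, with 3 higher and 3 lower, 3 higher and 0 lower, and 3 higher and 2 lower in that order of lines. Fibroblast markers (5 of 8 tested) summed to 8.62 and 9.37 CPM in the knockout, 5.55 and 5.25 CPM in the mutant and 8.38 and 7.76 CPM in overexpression, against 4.93 and 5.29 CPM in wild type, with 3 higher and 0 lower, 1 higher and 1 lower, and 3 higher and 2 lower. Stem cell markers were called higher for 7, 8 and 8 of 10 in that order and lower for none. The part of any of these in the levels of the 10 genes was not tested.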

How the data were processed

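Per the labels' protocols, total RNA was prepared as stranded TruSeq libraries and sequenced with paired-end reads. STAR 2.5.0 and the build mm10 are named in the submitters' processing notes. Each deposited file gives 1 raw count per gene from the authors, not normalized. Which annotation and strand setting were used for counting is not given in the sources used here. Of 43346 genes listed, 42462 were matched to GENCODE M21 by identifier without version.

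The authors' deposited counts were analysed in R 4.3.3 with edgeR 4.0.16: filterByExpr (minimum count 10, total 15) kept 18055 of 27979 detected genes, TMM factors scaled the libraries, and 1 robust quasi-likelihood model with 4 residual degrees of freedom (biological coefficient of variation 4.17%) was fitted to the 4 groups. All 6 contrasts were tested, and p-values were Benjamini-Hochberg adjusted over all tested genes. Intervals of 95% for log2 changes come from the same fit, and the SE is the change divided by the root of F. An exact permutation test of 2 against 2 libraries cannot give a two-sided p below 0.333. DESeq2 1.42.0 was an alternative. These steps were also tested on simulated counts with set fold changes.

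The 10 genes, the related lists and the markers were chosen with earlier results of these data known. From each list the text names at most 3 called genes per comparison with the largest change and at least 1 CPM (a mean log2 CPM of 0) beside the counts, except Stmn4, Capn6, Rest, Tardbp, genes at 0 counts, and genes of 4-fold falls, which were chosen otherwise. Close paralogs may exchange reads, and intervals on ratios of counts cover counting error only. A few single-gene results are not reported here.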

Additional observations from a re-analysis of the deposited data

How the results depend on the processing

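Over 16 alternatives (median-ratio factors, library size only, no filter on low counts, genes of at least 1 CPM only, 2 groups fitted alone, no robust step, a replicate block, 8 settings that leave out 1 library, and DESeq2), the 96 log2 changes of Stmn2 kept their direction and their side of the threshold. The number of the 10 genes called, Dcx included, stayed within 1.5 times in all 96 repeats: 6 to 9 in the knockout, 3 to 4 in the mutant and 8 to 9 in overexpression, each against wild type, 6 to 9 and 8 to 9 for the knockout and overexpression against the mutant, and 7 to 10 for the knockout against overexpression. With genes under 1 CPM left out, 8 of the 10 genes were tested, without Dcx and Nefm. Wherever it was tested, Dcx added 1 call to the count of each knockout comparison, although in the main fit only its knockout counts let it in. These counts therefore describe the processing alone, and counts without Dcx stand above with the shares of all genes. Of 944 log2 changes of single genes, 926 kept direction and call, 8 lost the call, 7 gained it and 3 reversed sign, none of which was called in either form. The reversed ones were Dcx in the mutant against wild type, at -0.058 without wild-type replicate 2 and -2.41 without mutant replicate 1 (0.77 with all libraries, from 2 counts against 1, and -2.41 to 3.19 over the settings that leave out 1 library), and Stmn3 in the knockout against the mutant, at -0.015 without mutant replicate 1 (0.04 with all libraries, and -0.015 to 0.10 over those settings). Map2 in the knockout against the mutant (-0.16, adjusted p = 0.138) passed under 4 alternatives (adjusted p = 0.0152 to 0.0328). The number of all genes called in the mutant was 2891, and 1883 without wild-type replicate 1, where the lone wild-type library is assumed to vary like the others. Across groups, libraries of 1 replicate number did not deviate together, so the numbers give no pairing (correlations -0.034 to 0.06). With the replicate block the 10 genes gave 8, 4 and 9 calls in the knockout, mutant and overexpression against wild type, as without it, and 7951, 2744 and 9815 genes were called in all, beside 8143, 2891 and 9901 without it. Depth limits Dcx and Nefm, and Stmn4 among the related genes.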
